A study of Mus musculus with 45 samples.

Results

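Collagens and laminins are the fibre, network and sheet proteins of the extracellular matrix, and their messenger RNA was followed here in mouse mammary tumour cell lines of differing metastatic potential, in complete medium and without cysteine and cystine. The genes were taken by name: 55 symbols of the count table, out of 28454 genes, were a collagen α-chain or a laminin α, β or γ chain, and 33 of them had 10 or more counts in at least 3 of the 45 libraries. These 33 genes, 25 collagen and 8 laminin genes, are described below.

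The lines came from MMTV-cMYC mice, in which a mammary tumour virus promoter drives the MYC oncogene in the mammary gland. MYAZ16_1e, MYAZ12_3i and MYAZ6_6g (the MYAZ subtype) are tumour-derived lines of this model, and Myc310 is a single line from such a mouse with several tumours. LM1, LM2 and LM3 (the LM subtype) were recovered from lungs after Myc310 cells had been injected into the mammary fat pad, and LM1_LM came from lungs after injection of LM1, with LM2_LM and LM3_LM given as its biological replicates (the LM_LM subtype). A further line, MYAZ12_3i_NDI1, carries NDI1, a yeast NADH dehydrogenase, by its label, and was sequenced in control medium only. All groups received the same seeding of 250000 cells per well and grew for 24 h in medium with serum, insulin, hydrocortisone and EGF. MYAZ16_1e, Myc310, LM1 and LM1_LM were then sequenced after 6 h in control medium or in medium without cysteine and cystine (deprived), and each of the 15 groups has 3 cultures. The design text calls the 3 cultures of a line technical replicates, so p-values for deprivation and for MYAZ12_3i_NDI1 measure the spread between cultures of a line. Those between subtypes also take in the spread between lines, but count the cultures of a line as if they were independent.

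Laminins are heterotrimers of an α, a β and a γ chain that form the cell-facing sheet of the basement membrane. Laminin-511 combines the chains of Lama5, Lamb1 and Lamc1, laminin-521 has the Lamb2 chain in place of that of Lamb1, and the chains of Lama3 and Lamb3 are part of laminin-332, which anchors epithelial cells through hemidesmosomes. Collagen IV forms the second network of that membrane, collagen VII forms the fibrils that tie it to the tissue beneath, and collagen XVIII carries the endostatin domain. Collagens I, III and V form the striated fibrils of connective tissue, collagens IX, XII, XIV and XVI sit on or between such fibrils, and collagen VI forms beaded filaments around cells.

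Total counts per library ran from 19517859 to 29019988, with a median of 22899900, and the 33 genes together held 0.206% to 0.337% of them. Levels are given as CPM, the count of a gene scaled to the TMM-adjusted library total. The cells showed only part of an epithelial profile. Krt8 (221 to 1719 CPM over the 11 lines in control medium) and Krt18 were high, whereas Epcam stayed at or below 0.67 CPM and Cdh1 at or below 0.14 CPM, and the mesenchymal filament gene Vim was at 2612 to 3938 CPM. Of the other 6 genes of the mesenchymal list, the transcription factor genes Zeb1, Zeb2 and Twist1 were at 18.99 to 118 CPM in every line and Snai2 at or below 0.285 CPM. Cdh2 and Fn1, for N-cadherin and fibronectin, were at 71.5 to 94.8 and 378 to 1213 CPM in the MYAZ lines, and at 0.0142 to 0.101 and 0.320 to 11.8 CPM in Myc310 and the LM and LM_LM lines. The summed level of the fibroblast list (11 of 12 genes in the table) was 15.3 CPM in MYAZ16_1e, 410 CPM in MYAZ12_3i and 288 CPM in MYAZ6_6g, against 1.43 CPM in Myc310 and 3.44 to 21.2 CPM in the LM and LM_LM lines. Acta2, with 312 and 247 CPM, made up most of the sums of MYAZ12_3i and MYAZ6_6g, where Pdgfrb had 33.6 and 22.5 CPM, Tagln 15.5 and 11.8 CPM and Pdgfra 48.5 and 6.66 CPM. In MYAZ16_1e, Myc310 and the LM and LM_LM lines Pdgfra was the highest of the list, at 1.08 to 20.7 CPM. Dcn, Lum, Thy1 and Postn were at or below 0.098, 0.015, 0.057 and 0.285 CPM in all 11 lines, and Fap had 0 counts. Leukocyte (7 of 10 genes in the table) and alveolar (5 of 8) sums never exceeded 17.5 and 5.80 CPM in any group. The endothelial sum (8 of 10 genes in the table) was 6.61 to 19.6 CPM, of which Egfl7 was 6.37 to 18.5 CPM. Kdr was at 4.06 to 6.29 CPM in the MYAZ lines and at or below 0.211 CPM in Myc310, LM and LM_LM lines, and Pecam1, Cdh5 and Tek stayed at or below 0.168, 0.688 and 0.0704 CPM.

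The 22 symbols left out by the count rule were led by Col20a1, which reached 10 counts in 2 libraries, and by Col4a2, Col24a1 and Col8a2, which reached it in 1 library each. Just inside the rule, Col4a3, Col4a6 and Col9a3 reached it in 3 libraries each. The other 18 were Col2a1, Col4a4, Col6a5, Col6a6, Col9a2, Col10a1, Col11a1, Col13a1, Col15a1, Col17a1, Col19a1, Col22a1, Col25a1, Col26a1, Col28a1, Lama1, Lama2 and Lama4, with at most 9 counts in any library (Col17a1). Col10a1 had none. In a library of the median depth, 10 counts correspond to less than 1 CPM, so a gene left out may still have been expressed at a low level.

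The bases before the start site are shown for 4 genes on which the results turn: Col7a1, which rose under deprivation; Lama5, the laminin α chain of these cells; Col3a1, absent from MYAZ16_1e and abundant in LM lines; and Col8a1, near absent from Myc310. Each is the 250 bases upstream of the RefSeq start in build GRCm38.p6, written 5′ to 3′ on the gene's strand. Capitals mark the GC box core GGGCGG, the CCAAT box and the TATAAA box, on either strand. The windows are chr9:108953336-108953585 (plus strand) for Col7a1, chr2:180225860-180226109 (minus strand) for Lama5, chr1:45311288-45311537 (plus strand) for Col3a1 and chr16:57754738-57754987 (minus strand) for Col8a1, and none overlaps an annotated exon.
Col7a1: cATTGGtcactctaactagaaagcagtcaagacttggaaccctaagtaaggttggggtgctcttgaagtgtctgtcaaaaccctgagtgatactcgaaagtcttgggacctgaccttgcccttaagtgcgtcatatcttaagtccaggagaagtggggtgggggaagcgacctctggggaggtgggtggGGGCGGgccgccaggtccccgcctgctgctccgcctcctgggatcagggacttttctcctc
Lama5: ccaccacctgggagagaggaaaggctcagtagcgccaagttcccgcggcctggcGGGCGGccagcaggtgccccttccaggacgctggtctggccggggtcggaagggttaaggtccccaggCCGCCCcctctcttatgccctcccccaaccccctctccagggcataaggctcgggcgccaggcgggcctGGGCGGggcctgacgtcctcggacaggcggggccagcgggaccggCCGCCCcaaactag
Col3a1: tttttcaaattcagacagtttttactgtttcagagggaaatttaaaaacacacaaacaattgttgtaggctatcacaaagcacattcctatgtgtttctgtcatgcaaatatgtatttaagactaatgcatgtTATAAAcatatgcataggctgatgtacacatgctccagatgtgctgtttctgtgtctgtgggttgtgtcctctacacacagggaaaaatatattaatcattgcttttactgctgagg
Col8a1: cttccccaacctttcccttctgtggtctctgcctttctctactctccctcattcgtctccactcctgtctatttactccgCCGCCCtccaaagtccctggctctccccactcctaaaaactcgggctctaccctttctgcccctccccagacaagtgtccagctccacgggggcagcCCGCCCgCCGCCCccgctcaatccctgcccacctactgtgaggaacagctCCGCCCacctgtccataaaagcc

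RefSeq windows were matched to 23 of the 33 genes (27 windows). The GGGCGG motif, bound by SP factors, lay on either strand in 17 of the 27 windows, against 32.7% of all 32851 windows, and 4 times in each of the Lama5 and Col8a1 windows. CCAAT was in 10 of the 27 windows (33.8% of all windows) and TATAAA in 2 (12.4%). All windows here include those of genes that the count rule would leave out. TGANTCA, the AP-1 motif, was in the Col6a1 window alone (6.75% of all windows), and TGATGNAA, the element read by ATF4 and its partners under amino acid shortage, was in none (3.45% of all windows). Such matches describe letters and not binding.

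In control medium the laminin trimer with the most messenger RNA per length was laminin-511 in every line. Median levels over these lines were 57.9 CPM per kb of exon for Lamc1, 46.1 for Lama5 and 37.3 for Lamb1, and Lamb2 stood at 7.73 CPM per kb. On this per-length scale, over all lines, Lama5 held 98.5% to 99.9% of the laminin α signal, Lamb1 75.9% to 87.9% of the β signal and Lamc1 93.1% to 98.1% of the γ signal. Lama3 and Lamb3, which give chains of laminin-332, had medians of 0.181 and 0.669 CPM per kb. The α2 and α4 chains typical of muscle and vessel walls, Lama2 and Lama4, had at most 5 and 2 counts in any library. The collagens with the most messenger RNA per length were Col18a1 (37.98 CPM per kb), Col16a1 (35.02) and Col5a1 (30.8), followed at a distance by Col6a1 (8.49), Col4a5 (6.48) and Col5a3 (5.90).

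**Figure D1:**
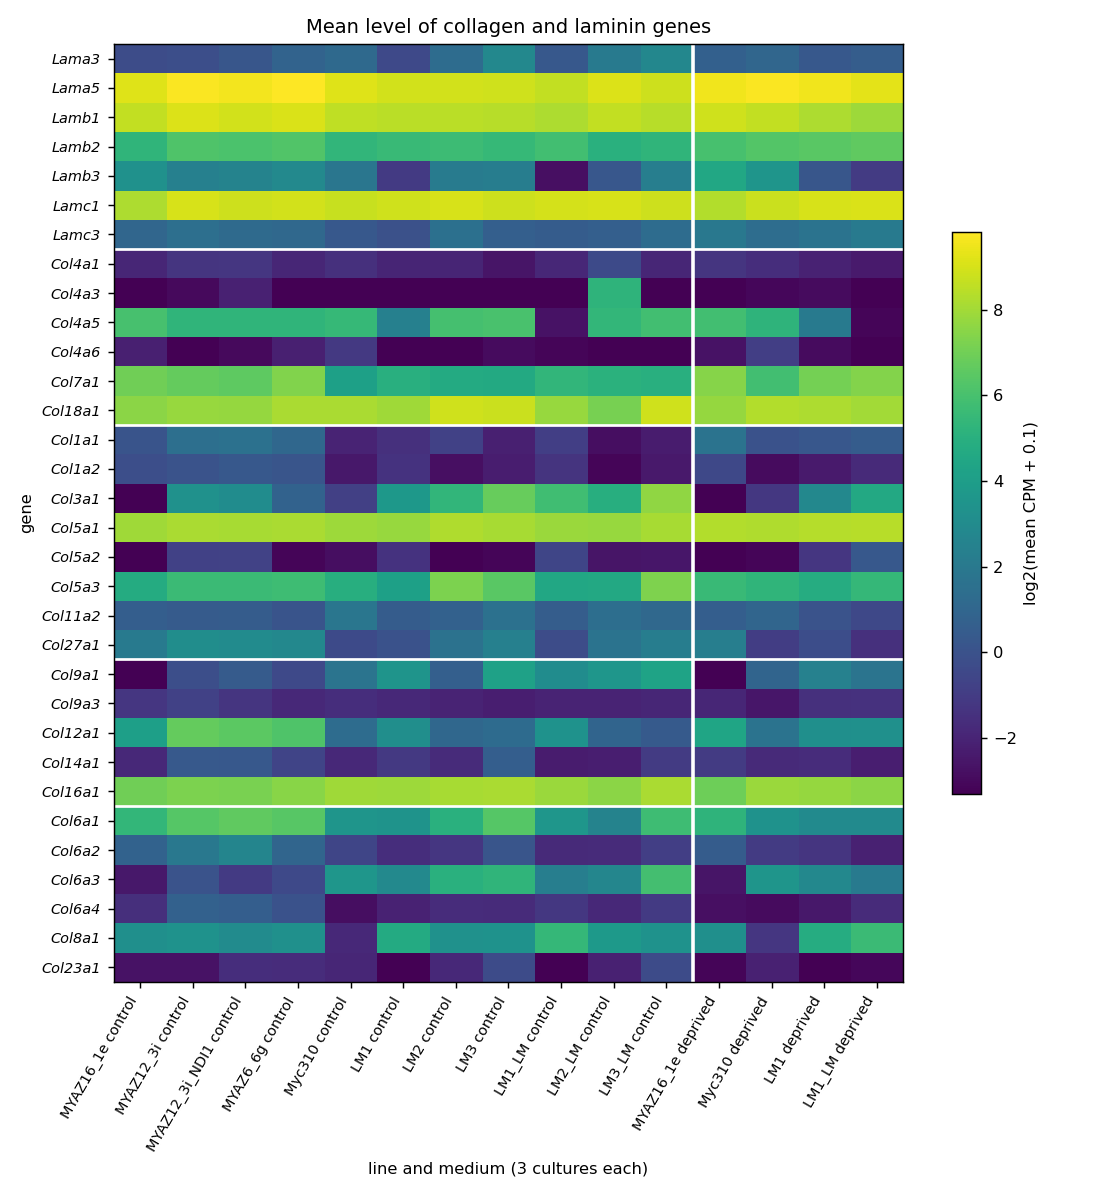
Mean level of collagen and laminin genes (rows, grouped by role) in the 15 groups (columns, control groups left of the white line, 3 cultures each), coloured by log2 of mean CPM plus 0.1. Lama5, Lamb1, Lamc1, Col5a1, Col16a1 and Col18a1 are bright in every group, whereas Col4a3, Col4a5, Col8a1, Col3a1 and Lamb3 drop out of, or appear in, single lines.

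Collagen I, the main fibril of connective tissue, was nearly missing. Its chains Col1a1 and Col1a2 had medians of 0.0529 and 0.0158 CPM per kb, while Col5a1, the collagen V chain that nucleates fibrils, had 30.8 CPM per kb. Of the other collagen V chains, Col5a2 had a median of 0.00556 CPM per kb and Col5a3 one of 5.90. The most widespread collagen IV pair was near absent as well. Col4a1 (chr8:11198423-11312826, minus strand) and Col4a2 (chr8:11312805-11449287, plus strand), whose RefSeq starts lie 21 bases apart, reached at most 19 and 12 counts in any library. Nid1, which bridges laminin and collagen IV, was at 1.12 to 3.12 CPM in the 3 MYAZ lines and at 320 to 468 CPM in Myc310, LM and LM_LM lines, and Hspg2, which encodes perlecan, was at 369 to 558 CPM in these 10 lines. In collagen VI, whose classical chains assemble together, Col6a1 had a median of 8.49 CPM per kb, Col6a3 one of 0.569 and Col6a2 one of 0.0613.

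Several genes switched between high and near zero from line to line. Col4a5 (chrX:141475385-141689234), a collagen IV chain that pairs with that of Col4a6, had 38.5 to 65.9 CPM in 8 of the 10 lines. In LM1 the 3 cultures had 3.82, 5.80 and 6.10 CPM, and in LM1_LM, derived from LM1, they had 2, 1 and 1 counts. LM1 and LM1_LM were thus below each of the other lines, in every culture. Col4a6, which starts 1343 bases away on the opposite strand, had a mean of at most 0.349 CPM in control medium of any line and reached 0.538 CPM in its highest culture, one of deprived Myc310.

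Col4a3 (chr1:82586921-82722059, plus strand), a chain of the specialised collagen IV of kidney and lung, showed the opposite pattern. LM2_LM had 38.1, 36.6 and 37.5 CPM (1002, 873 and 931 counts), and LM2 had 0 counts in all 3 cultures, so the level in LM2_LM was at least 285-fold higher, taking 3 counts per library as the floor. In the other control groups it had 0 counts, apart from the MYAZ12_3i and MYAZ12_3i_NDI1 groups at 0.0271 and 0.133 CPM. Col4a4, its partner chain next to it on the opposite strand, had at most 6 counts in any library. Mff (chr1:82724890-82752394), which follows Col4a3 on the same strand, was at 71.6 to 75.2 CPM in LM2_LM and at 34.5 to 51.7 CPM in the control cultures of all other lines. All 3 cultures belong to 1 line, and whether the level belongs to that line's derivation was not tested.

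Col8a1 (chr16:57624258-57754737), a short-chain collagen of vessel and corneal membranes, had 0.197, 0.0884 and 0.282 CPM in Myc310 and 25.3 to 28.1 CPM in LM1, which was raised from Myc310. The means of the other 10 lines lay between 8.14 and 42.5 CPM. Lamb3 (chr1:193207699-193343878), the laminin-332 β chain, had 8.36 to 11.8 CPM in MYAZ16_1e, 0.204 to 0.580 CPM in LM1, and 0, 1 and 2 counts in LM1_LM. Its annotated span overlaps other genes on both strands, and whether the counting used strand is not given in the sources used here.

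**Figure D2:**
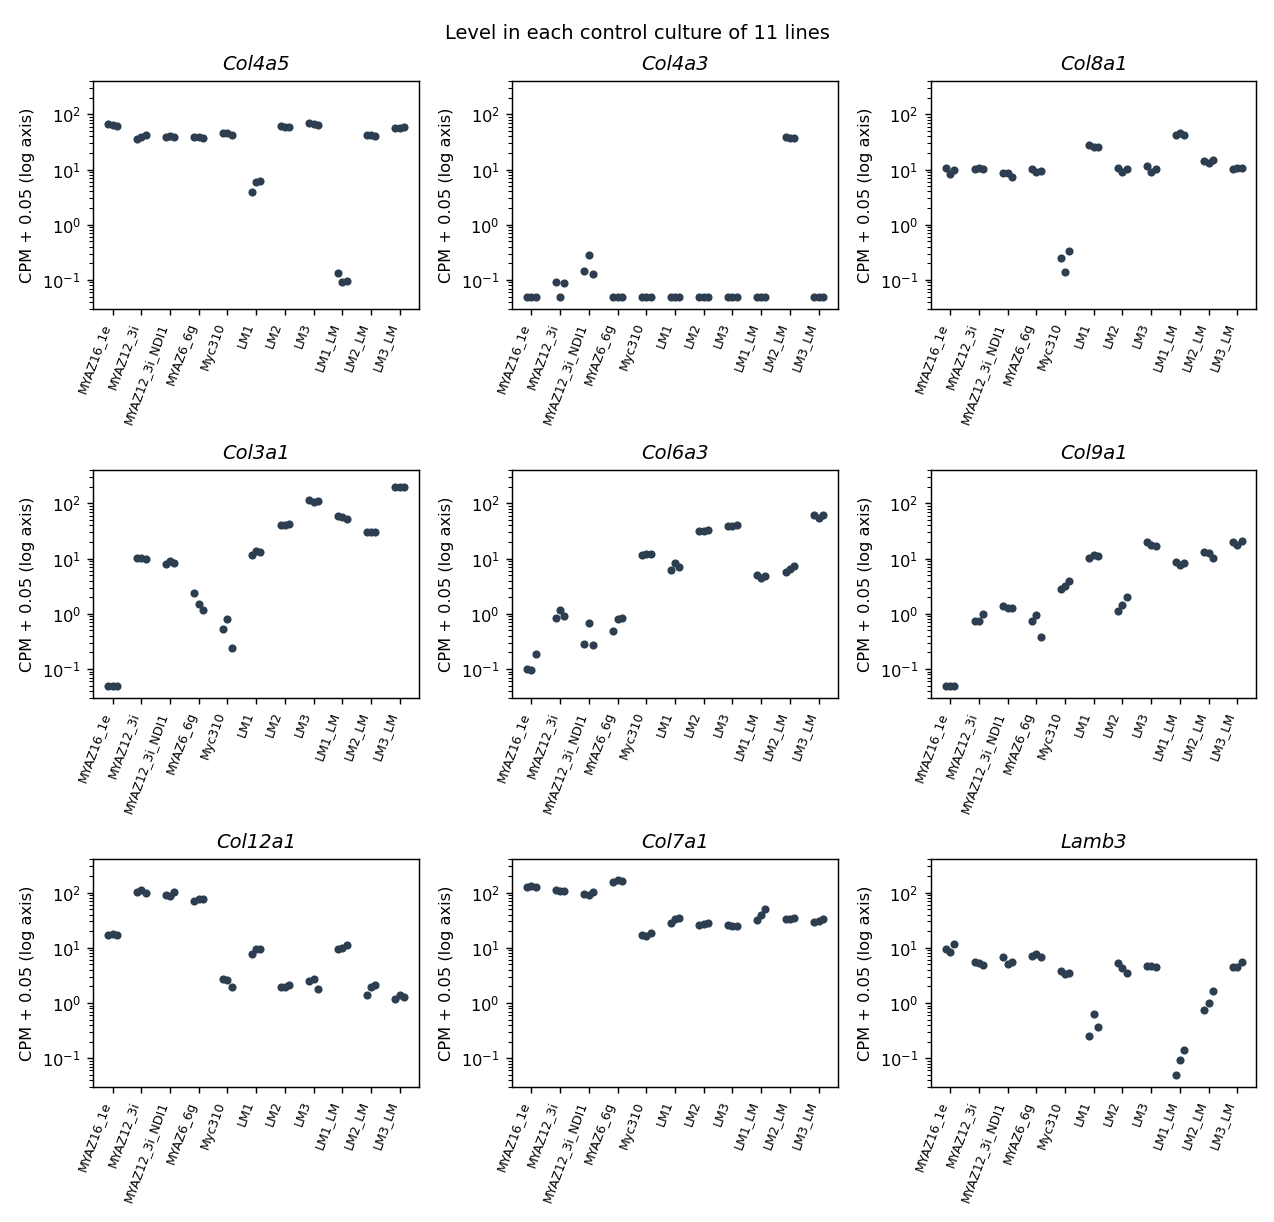
CPM plus 0.05 on a log axis for each control culture (points) of the 11 lines (columns), for 9 genes. Col4a5 falls in LM1 and LM1_LM only, Col4a3 rises in LM2_LM only, Col8a1 is near zero in Myc310, and Col3a1, Col6a3 and Col9a1 climb from the MYAZ lines to the LM and LM_LM lines while Col12a1 and Col7a1 descend.

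To ask which of these genes differ between subtypes in culture, the subtypes were compared in control medium. The LM and LM_LM lines descend from Myc310, a single line, so metastatic potential and descent from it cannot be told apart here. The comparison used edgeR's quasi-likelihood test and Benjamini-Hochberg adjustment over 13795 genes, of which 31 were collagens or laminins. In LM against MYAZ, 7 were higher and 11 lower (over all genes, 30.3% were called higher and 30.5% lower), with a median log2 difference of -0.39 against 0.0023 for all genes. In LM_LM against MYAZ, 8 were higher and 15 lower (30.5% and 32.3% of all genes), with a median of -0.39 against -0.012. The 8 higher genes include Col4a3, which met the count rule only through the LM2_LM libraries. Of the 8 laminins, 1 was higher and 4 lower in LM, and 1 higher and 5 lower in LM_LM. The line means of LM and MYAZ did not overlap for 4 higher and 11 lower genes (21.5% and 22.6% of all genes), and those of LM_LM and MYAZ for 5 higher and 8 lower genes (21.1% and 22.6%). The shares called higher and lower were 22.6% and 35.5% in LM, and 25.8% and 48.4% in LM_LM. Some of these shares lay near those of all genes. The counts share the MYAZ libraries and use related lines, so they are not independent of one another.

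Col6a3, Col3a1 and Col9a1 had the largest increases among genes with separated line means. Col6a3 (chr1:90765923-90843971), the long collagen VI chain that releases endotrophin, ran from 0.0464 to 1.11 CPM in the 9 MYAZ libraries (median 0.755), from 6.06 to 39.97 CPM in the 9 LM libraries (median 32.1) and from 4.43 to 60.9 CPM in the 9 LM_LM libraries (median 6.36). No LM or LM_LM library fell within the MYAZ range. Its log2 difference was 5.55 ± 0.71 (SE; adjusted p = 8.7e-08) in LM and 5.37 ± 0.71 (adjusted p = 1.3e-07) in LM_LM, and Myc310, at 11.6 to 12.3 CPM, was already 4.42 ± 0.80 above MYAZ (adjusted p = 3.8e-05). The Myc310 call was lost with counts summed per line and with the line as a random block (adjusted p up to 0.0966), and that of LM_LM with the random block (0.0546).

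Col3a1 (chr1:45311538-45349706), the fibrillar collagen III of skin and vessels, had 0 counts in all MYAZ16_1e cultures and ran up to 10.3 CPM in the other MYAZ libraries (median of 9 libraries 1.47 CPM). LM libraries had 11.8 to 116 CPM (median 40.6) and LM_LM libraries 29.8 to 202 CPM (median 55.96). Against 3 counts per library in MYAZ16_1e, the mean of LM1 was at least 98.4-fold higher and that of LM3_LM at least 1546-fold. LM exceeded MYAZ by 3.80 ± 0.70 (adjusted p = 3.1e-05) and LM_LM by 4.60 ± 0.72 (adjusted p = 2.5e-06), on the log2 scale, and with counts summed per line both calls were lost (adjusted p = 0.0903 and 0.0509). Myc310 was low in every culture, with 0.473, 0.751 and 0.188 CPM, so that LM stood 6.83 ± 1.5 above the line it came from (adjusted p = 0.0047). This last call was lost with counts summed per line, with the line as a random block (adjusted p = 1 in both), and without replicate 1, 2 or 3. Against MYAZ, the collagen I chains moved the other way.

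Col9a1 (chr1:24177610-24252684), a collagen IX chain better known from cartilage, was at 0 counts in MYAZ16_1e and at most 0.956 CPM in the other MYAZ libraries, at 1.08 to 19.6 CPM in LM and at 7.71 to 20.9 CPM in LM_LM. The log2 differences from MYAZ were 4.39 ± 0.59 (adjusted p = 2.1e-07) and 4.77 ± 0.60 (adjusted p = 5.4e-08). Col16a1, a fibril-associated collagen of high level, rose less, from 122 to 183 CPM in MYAZ to 239 to 297 CPM in LM (0.83 ± 0.09; adjusted p = 6.2e-09), with no overlap between libraries. In LM_LM it ran from 182 to 293 CPM, its lowest library within the MYAZ range (0.63 ± 0.09; adjusted p = 7.1e-07).

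Col12a1 (chr9:79598991-79718831), which lies on fibril surfaces in tissue under tension, had the largest decrease. MYAZ libraries ran from 16.98 to 109 CPM (median 75.8), LM from 1.77 to 9.43 CPM (median 2.47) and LM_LM from 1.13 to 11.2 CPM (median 1.88). No LM or LM_LM library reached the MYAZ range, and the log2 differences from MYAZ were -3.91 ± 0.55 (adjusted p = 4.4e-07) and -3.90 ± 0.55 (adjusted p = 4.2e-07). Within MYAZ, Col12a1 was lowest in MYAZ16_1e (17.2 CPM), the MYAZ line with the lowest fibroblast-list sum, and it had 104 and 74.3 CPM in MYAZ12_3i and MYAZ6_6g. The part of such cells or of such a state in the difference was not tested, and in bulk samples fewer cells of a type cannot be told apart from less RNA per cell.

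The collagen I chains followed the same order at a far lower level. Col1a1 had 0.882 to 3.18 CPM in MYAZ, 0.0454 to 0.605 CPM in LM and 0 to 0.829 CPM in LM_LM (log2 differences of -2.72 ± 0.48 and -3.28 ± 0.50; adjusted p = 1.7e-05 and 1.7e-06). Col1a2 had 0.397 to 1.31 CPM in MYAZ and at most 0.312 and 0.340 CPM in LM and LM_LM (-2.61 ± 0.54 and -2.73 ± 0.55; adjusted p = 0.00014 and 7.7e-05), calls that were lost with counts summed per line and with the line as a random block (adjusted p up to 0.0848 and 0.0582). Col6a2 had 1.22 to 4.30 CPM in MYAZ, 0.134 to 1.30 CPM in LM and 0.0805 to 0.523 CPM in LM_LM (-2.21 ± 0.38 and -3.05 ± 0.40; adjusted p = 1.0e-05 and 1.2e-07). These 3 genes amount to few counts per library, and Col6a2 of LM overlaps the MYAZ range in its highest library.

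Of the anchoring components, Col7a1 (chr9:108953586-108984875) was at 105 to 167 CPM in MYAZ, 24.6 to 34.5 CPM in LM and 29.5 to 51.1 CPM in LM_LM, and fell by 2.25 ± 0.11 and 1.92 ± 0.10 on the log2 scale (adjusted p = 4.4e-17 and 1.1e-15). Every MYAZ library stood above every LM and LM_LM library. Among the laminin-511 chains, Lama5 and Lamb1 fell by 0.70 ± 0.10 and 0.50 ± 0.08 in LM and by 0.74 ± 0.10 and 0.55 ± 0.08 in LM_LM (adjusted p at most 2.1e-06), whereas Lamc1 differed from MYAZ by 0.14 ± 0.10 and 0.16 ± 0.10 (adjusted p = 0.24 and 0.18). Lama3, on the other hand, was higher in LM and LM_LM, by 1.59 ± 0.49 and 1.84 ± 0.49 (adjusted p = 0.0056 and 0.0016), although its line means in LM, 0.640 to 6.94 CPM, overlapped those of MYAZ. Both Lama3 calls were lost with counts summed per line and with the line as a random block, and that in LM also without line LM3 (adjusted p up to 0.396 in LM and 0.15 in LM_LM).

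Myc310, the parent of the LM lines, was compared with the same MYAZ libraries. Against MYAZ, 4 of the 31 genes were higher and 15 lower (23.8% and 27.1% of all genes), with a median log2 difference of -0.99 against -0.019. The 15 include Col8a1, Col12a1 and Col7a1, and the 4 higher genes were Col6a3, Col9a1, Col11a2 and Col16a1. With the line as a random block the calls of Col8a1, Col12a1, Col6a3 and Col9a1 were lost (adjusted p up to 0.251 over the alternatives), and with counts summed per line those of Col12a1 and all 4 higher genes. Against Myc310, LM was higher for 4 genes and lower for 0 in edgeR (3.43% and 1.51% of all genes; 1 was lower at an unadjusted p under 0.05, and DESeq2 called 0 lower). The 4 included Col3a1, Col8a1 (6.32 ± 0.75; adjusted p = 1.7e-06) and Col7a1 (0.68 ± 0.15; adjusted p = 0.0061). Of LM_LM against LM, edgeR called Col4a3 higher and 0 genes lower (0.268% and 0.5% of all genes; 5 were lower at an unadjusted p under 0.05, and DESeq2 called 0 lower), and the Col4a3 call is the level of LM2_LM described above. The fitted value for Col4a3 rests on cultures with 0 counts and is no measure of size. Col4a3 met the count rule only through the LM2_LM libraries. Its call was lost under 8 alternatives, among them counts summed per line, the line as a random block and leaving out replicate 1, 2 or 3.

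Where the cultures of a line were summed to 1 sample, so that lines were the replicates, fewer genes were called. The LM and LM_LM lines share Myc310 as their origin, so they are not independent of one another in this fit either. In that fit, with all 33 genes tested, LM was higher than MYAZ for 3 genes and lower for 8 (11.3% and 12.4% of all genes), and LM_LM was higher for 3 and lower for 7 (12.8% and 13.6%). Myc310, which is a single line, was higher than MYAZ for 0 genes and lower for 3 (4.72% and 4.2% of all genes; 3 were higher at an unadjusted p under 0.05). Between LM and Myc310, 0 genes were called (0.0125% of all genes higher and 0% lower; 3 were higher and 1 lower at an unadjusted p under 0.05), and the calls of Col3a1, Col8a1 and Col7a1 given above were also lost with the line as a random block. That of Col7a1 was lost as well without replicate 1 or 2. In the summed fit Myc310 is 1 sample and the spread comes from the other subtypes, so a lost call there is no measure of size. Over the alternatives, the log2 differences of LM from Myc310 were 5.81 to 7.32 for Col3a1, 5.70 to 6.70 for Col8a1 and 0.572 to 0.747 for Col7a1.

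The MYAZ12_3i_NDI1 line was compared with MYAZ12_3i, a comparison in which 29 of the genes were tested among 12841. Of these, 2 were higher and 8 lower (8.14% and 9.27% of all genes). With 1 replicate left out, 3 to 5 were lower. The changes were small for the abundant genes: Lamc1 fell by 0.23 ± 0.03, Lamb1 by 0.19 ± 0.03, Lama5 by 0.16 ± 0.03 and Col7a1 by 0.17 ± 0.04 on the log2 scale, with adjusted p of 4.4e-05, 0.0002, 0.00069 and 0.0068. Col6a1 and Col6a2, neighbours on chromosome 10 that encode partner chains, rose by 0.26 ± 0.04 and 0.74 ± 0.14 (adjusted p = 0.00054 and 0.0021), whereas Col6a3 fell by 1.27 ± 0.41 (adjusted p = 0.045) at 0.370 against 0.924 CPM. The call for Col6a3 was lost with DESeq2 and without replicate 1 or 3, and that for Col7a1 without replicate 1 and in a fit of all 33 control libraries.

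Under deprivation of cysteine and cystine for 6 h, most laminins rose, whereas the collagens moved both ways. All comparisons used the 24 libraries of MYAZ16_1e, Myc310, LM1 and LM1_LM and 13400 genes, 26 of them collagens or laminins. In MYAZ16_1e, 14 genes rose and 1 fell (26.6% and 27.1% of all genes), in Myc310 11 rose and 4 fell (32.8% and 33.9%), in LM1 12 rose and 6 fell (35.8% and 35.3%), and in LM1_LM 13 rose and 7 fell (36.5% and 35.9%). The median log2 changes were 0.23, 0.06, 0.16 and 0.15, and those of all genes were 0, -0.013, -0.0046 and 0. Of the 8 laminins, 8, 5, 7 and 6 rose, in the same order of lines, and Lamb1 fell in LM1 and LM1_LM. Of the 18 collagens, 6, 6, 5 and 7 rose and 1, 4, 5 and 6 fell. Laminin medians were 0.70, 0.77, 0.84 and 0.72, and those of the collagens lay between -0.24 and 0.0074.

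**Figure D3:**
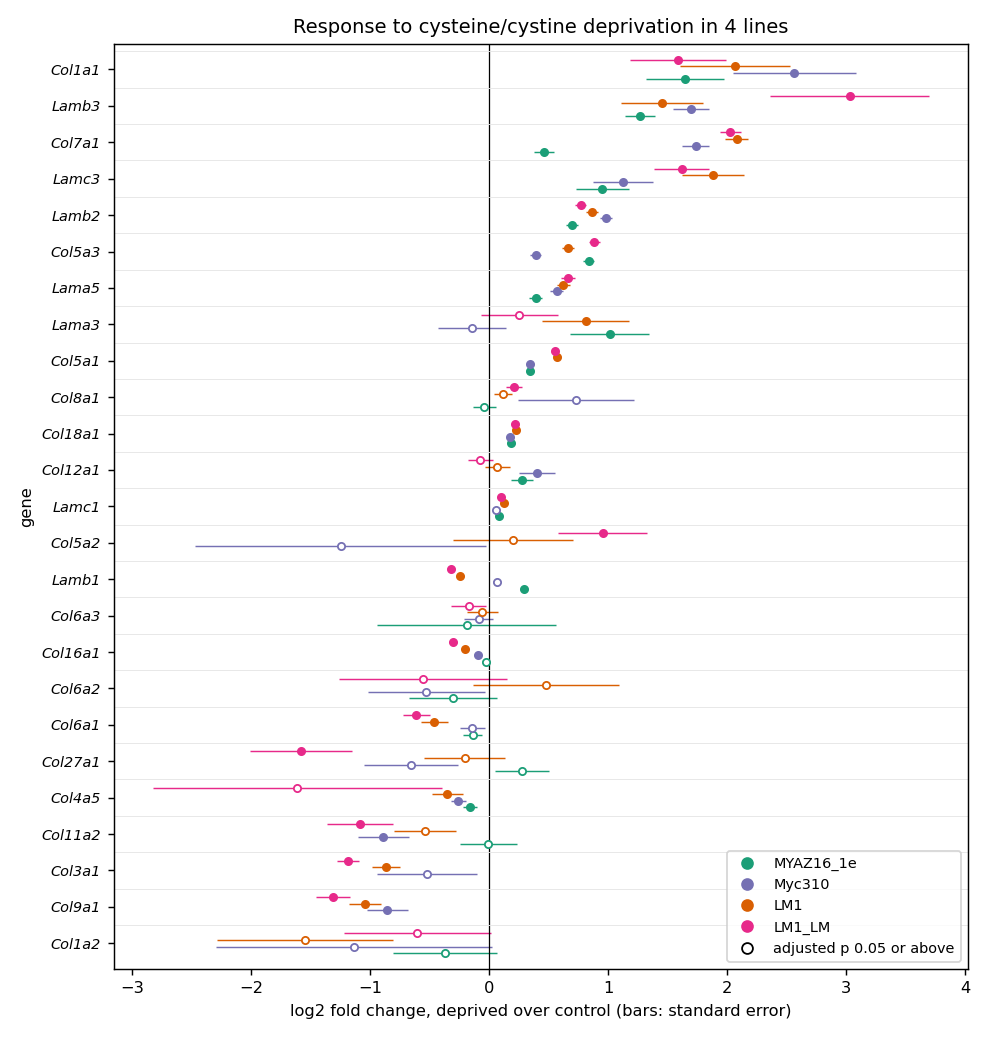
Log2 fold change of deprived over control cultures (points, horizontal axis) with its standard error (bars) for tested genes (rows) in MYAZ16_1e, Myc310, LM1 and LM1_LM (colours), filled where adjusted p was under 0.05. Col1a1, Lamb3, Col7a1, Lamc3 and Lamb2 lie right of 0 in all 4 lines, and Col3a1 and Col9a1 lie left of 0 wherever they were measured. Values are not drawn for genes with 0 counts in both media of a line.

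Among the anchoring components, Col7a1, the gene of the anchoring fibrils, rose in all 4 lines. It went from 124, 133 and 123 CPM to 167, 175 and 180 CPM in MYAZ16_1e, and from 17.2, 16.4 and 18.7 CPM to 54.7, 56.0 and 63.4 CPM in Myc310. In LM1 it went from 27.7, 33.2 and 34.5 CPM to 125, 131 and 149 CPM, and in LM1_LM from 32.3, 38.5 and 51.1 CPM to 163, 156 and 177 CPM. The deprived LM1 cultures thereby lay within the 105 to 167 CPM of the MYAZ lines in control medium, and those of LM1_LM within or above that range, while Myc310 stayed below it. Changes were 0.46 ± 0.08, 1.74 ± 0.11, 2.08 ± 0.10 and 2.03 ± 0.09 (adjusted p = 1.4e-05, 2.0e-14, 3.3e-18 and 1.2e-18).

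Lamb3 rose in all 4 lines but from very different levels. MYAZ16_1e went from 9.33, 8.36 and 11.8 CPM to 24.0, 23.7 and 23.9 CPM (1.27 ± 0.12; adjusted p = 5.8e-10), and Myc310 from 3.67, 3.31 and 3.47 CPM to 11.5, 10.1 and 12.4 CPM (1.70 ± 0.15; adjusted p = 1.8e-11). LM1 had 4, 13 and 7 counts in control and 18, 23 and 26 counts in deprived medium (1.45 ± 0.34; adjusted p = 0.00039). LM1_LM had 0, 1 and 2 counts against 8, 5 and 13 counts (adjusted p = 0.00017), and the size of its change cannot be fixed from so few counts. Lama3, the α chain that laminin-332 needs, stayed low. It rose in MYAZ16_1e, from 0.496, 0.743 and 0.980 CPM to 1.56, 1.67 and 1.39 CPM (1.01 ± 0.33; adjusted p = 0.011), and in LM1, from 0.611, 0.848 and 0.462 CPM to 0.751, 1.30 and 1.35 CPM with overlapping cultures (0.81 ± 0.36; adjusted p = 0.047). It changed by -0.14 ± 0.29 in Myc310 and 0.25 ± 0.32 in LM1_LM (adjusted p = 0.68 and 0.49). The Lama3 call was lost in MYAZ16_1e without control replicate 1 (adjusted p up to 0.0591), and in LM1 without control replicate 1 or 3 or deprived replicate 2 or 3, with DESeq2 and with other scalings (up to 0.179).

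**Figure D4:**
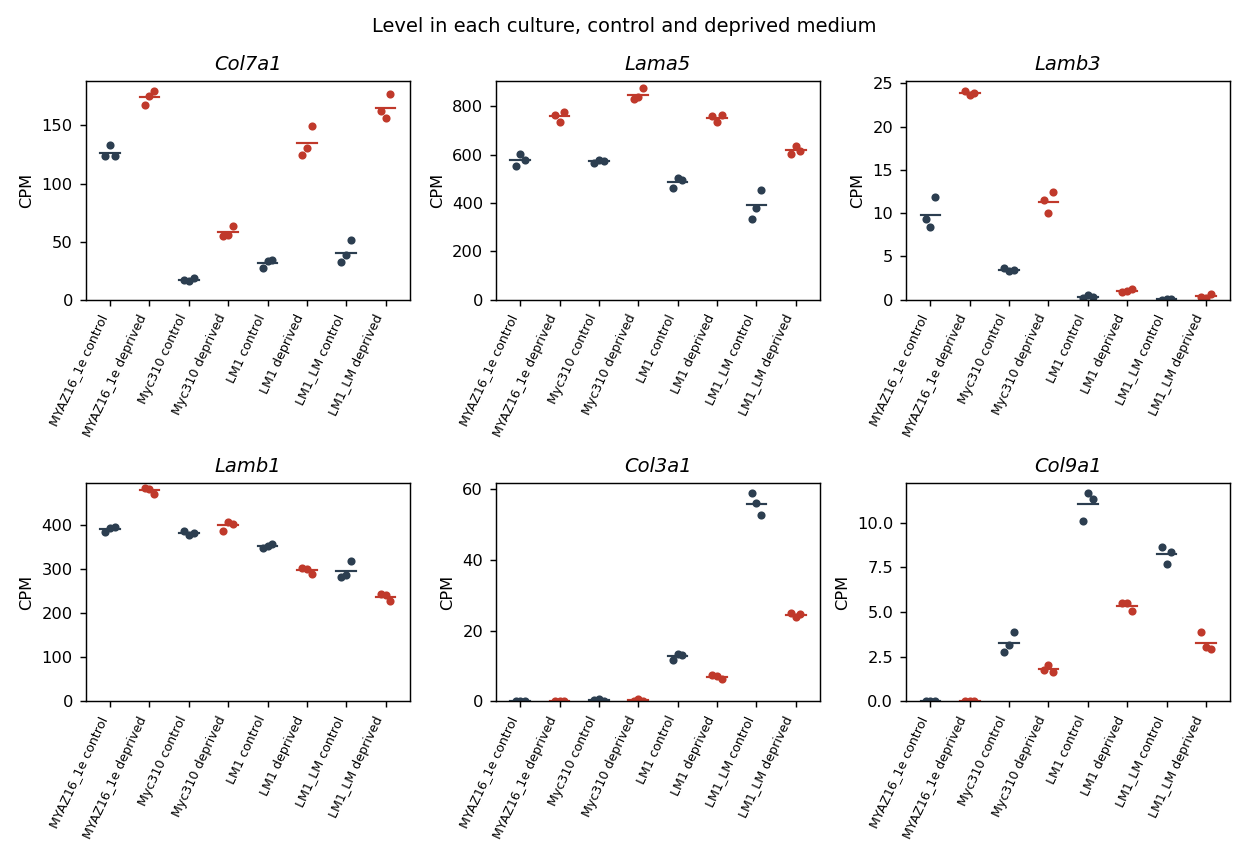
CPM of each culture (points) and group mean (line) in control (dark) and deprived (red) medium of 4 lines for Col7a1, Lama5, Lamb3, Lamb1, Col3a1 and Col9a1, on linear axes from 0. Deprived cultures of Col7a1 and Lama5 stand above the control cultures of the same line in each of the 4 lines, Lamb1 is higher in deprived MYAZ16_1e but lower in deprived LM1 and LM1_LM, and Col3a1 and Col9a1 are lower in deprived LM1 and LM1_LM.

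The chains of laminin-511 and laminin-521 moved by less. Lama5 rose in all 4 lines, by 0.39 ± 0.06, 0.57 ± 0.06, 0.62 ± 0.06 and 0.66 ± 0.06 in MYAZ16_1e, Myc310, LM1 and LM1_LM, and Lamb2 rose by 0.70 ± 0.05, 0.98 ± 0.05, 0.86 ± 0.05 and 0.77 ± 0.05 (adjusted p at most 6.4e-07). Lamb1, the more abundant β chain, did not follow them. It rose in MYAZ16_1e, from 384, 393 and 395 CPM to 483, 481 and 471 CPM (0.29 ± 0.03; adjusted p = 4.5e-09), and fell in LM1, from 348, 351 and 357 CPM to 303, 300 and 289 CPM (-0.24 ± 0.03; adjusted p = 9.2e-08), and in LM1_LM, from 281, 288 and 319 CPM to 243, 241 and 228 CPM (-0.32 ± 0.03; adjusted p = 6.2e-10). In Myc310 it changed by 0.06 ± 0.03 (adjusted p = 0.082). Lamc1 moved by 0.06 to 0.12 in the 4 lines, was not called in Myc310, and lost its call in LM1 and LM1_LM with upper-quartile scaling and in MYAZ16_1e without any of 4 single cultures. Lamc3, a γ chain of low level (0.845 to 1.91 CPM in control medium of these lines), rose in all 4, by 0.95 ± 0.22 to 1.88 ± 0.26.

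Among the collagens, Col5a1 and Col5a3 of collagen V, Col18a1 and Col1a1 rose in all 4 lines, besides Col7a1. Col5a1 rose by 0.34 ± 0.03, 0.35 ± 0.03, 0.57 ± 0.03 and 0.55 ± 0.03 and Col5a3 by 0.84 ± 0.05, 0.39 ± 0.05, 0.66 ± 0.05 and 0.89 ± 0.05, in MYAZ16_1e, Myc310, LM1 and LM1_LM. Col18a1 rose by 0.17 ± 0.03 to 0.22 ± 0.03. Col1a1 rose by 1.59 ± 0.40 to 2.56 ± 0.52 from few counts: Myc310 had 3, 1 and 6 counts in control and 17, 18 and 24 counts in deprived medium. Col1a2, its partner chain, was not called in any of the 4 lines, and its fitted changes were negative: -0.37 ± 0.44, -1.14 ± 1.16, -1.54 ± 0.74 and -0.60 ± 0.62, in the order above (adjusted p = 0.063 in LM1 and at least 0.39 in the others).

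Col3a1, Col9a1 and Col27a1 fell. Col3a1 went from 11.8, 13.5 and 13.04 CPM to 7.46, 7.24 and 6.38 CPM in LM1 (-0.87 ± 0.12; adjusted p = 3.4e-07) and from 58.7, 56.0 and 52.7 CPM to 25.0, 23.7 and 24.7 CPM in LM1_LM (-1.19 ± 0.09; adjusted p = 5.9e-12), with no overlap of cultures in either. In MYAZ16_1e it had 0 counts in both media, and in Myc310 it did not exceed 0.751 CPM in either. Col9a1 went from 10.1, 11.6 and 11.3 CPM to 5.49, 5.52 and 5.07 CPM in LM1, from 8.64, 7.71 and 8.34 CPM to 3.89, 3.07 and 2.91 CPM in LM1_LM and from 2.76, 3.18 and 3.90 CPM to 1.75, 2.04 and 1.62 CPM in Myc310. Its changes were -1.04 ± 0.13, -1.31 ± 0.14 and -0.86 ± 0.17 (adjusted p = 1.1e-07, 5.4e-09 and 9.1e-05). Deprived LM1 thereby lay within the Col3a1 range of the MYAZ lines in control medium, and deprived LM1_LM above it, while Col9a1 stayed above that range in all 3 lines. Col27a1 fell in LM1_LM, from 0.723, 0.492 and 1.01 CPM to 0.117, 0.255 and 0.381 CPM (-1.58 ± 0.43; adjusted p = 0.0016), and was not called in the other lines, where its changes ran from -0.66 ± 0.39 to 0.28 ± 0.23.

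Decreases were also called for Col16a1 in Myc310, LM1 and LM1_LM (-0.10 ± 0.03, -0.20 ± 0.03 and -0.30 ± 0.03), Col6a1 in LM1 and LM1_LM (-0.46 ± 0.11 and -0.61 ± 0.11), Col11a2 in Myc310 and LM1_LM (-0.89 ± 0.21 and -1.09 ± 0.28) and Col4a5 in MYAZ16_1e, Myc310 and LM1 (-0.16 ± 0.06, -0.26 ± 0.06 and -0.35 ± 0.13). The Col4a5 call was lost in MYAZ16_1e without control replicate 1 or 2 or deprived replicate 1, and in LM1 without control replicate 2 or 3 or deprived replicate 2, and that of Col16a1 in Myc310 without deprived replicate 2. Col6a3 was not called in any line, and its changes ran from -0.19 ± 0.75 to -0.06 ± 0.13. Some genes near 0 in a line stayed there under deprivation: deprived LM1_LM had 1, 0 and 0 counts of Col4a5, deprived Myc310 had 0.263 to 0.417 CPM of Col8a1, and deprived MYAZ16_1e had no Col3a1 or Col9a1 count. Lamb3 in LM1_LM, by contrast, rose from its few counts, and LM2_LM, the line with Col4a3, had no deprived cultures.

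Whether the response of a line differs from that of MYAZ16_1e was tested as a difference of changes in the same model. In Myc310, 3 genes responded more positively and 4 more negatively (19.8% and 20.4% of all genes), in LM1 6 and 3 (26.9% and 25.3%), and in LM1_LM 5 and 6 (28.4% and 26.4%). The change of Col7a1 exceeded that in MYAZ16_1e by 1.28 ± 0.14, 1.62 ± 0.13 and 1.57 ± 0.12 in Myc310, LM1 and LM1_LM (adjusted p at most 1.4e-08). The change of Lamb1 differed from that in MYAZ16_1e by -0.23 ± 0.05, -0.54 ± 0.05 and -0.61 ± 0.05 (adjusted p = 0.00014, 2.8e-11 and 1.5e-12). The 3 differences share the MYAZ16_1e libraries, and MYAZ16_1e is the only MYAZ line with a deprived group, so a subtype and a line cannot be told apart here. No difference is given for Col3a1, Col5a2 and Col9a1, which had 0 counts in MYAZ16_1e.

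The machinery around these proteins was read from 4 gene lists. Of the 29 tested collagen-processing genes, 7 rose and 8 fell in MYAZ16_1e, 9 and 10 in Myc310, 8 and 11 in LM1 and 9 and 11 in LM1_LM, shares near or below the 26.6% to 36.5% of all genes that rose and the 27.1% to 35.9% that fell in these lines. Mia2, which helps load collagen at the endoplasmic reticulum exit, rose by 0.59 ± 0.03, 0.92 ± 0.03, 0.99 ± 0.03 and 0.98 ± 0.03 in the same order, and Serpinh1, the collagen chaperone HSP47, by 0.36 ± 0.02, 0.56 ± 0.02, 0.41 ± 0.02 and 0.32 ± 0.02. Crtap, part of the prolyl 3-hydroxylase complex, fell by 0.38 ± 0.04, 0.65 ± 0.04, 0.73 ± 0.04 and 0.78 ± 0.04. Its relative P3h3 fell by 0.97 ± 0.09, 1.68 ± 0.11 and 1.36 ± 0.08 in Myc310, LM1 and LM1_LM.

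Of the 12 tested basement-membrane partners, 3 or 4 rose and 3 to 5 fell in each line, again near the shares of all genes. Fbln2, which binds laminins, rose by 0.27 ± 0.05 in MYAZ16_1e, from 138 to 166 CPM, and by 3.31 ± 0.28 in Myc310, from 0.234 to 2.33 CPM. Tinagl1, a laminin-binding matrix protein, rose by 0.12 ± 0.03, 0.61 ± 0.03, 0.44 ± 0.03 and 0.38 ± 0.03. Pxdn, the peroxidase that crosslinks collagen IV, fell by 0.15 ± 0.03, 0.70 ± 0.03, 1.02 ± 0.03 and 0.98 ± 0.03. Of the 8 tested non-integrin receptors, 2 or 3 rose and 2 to 4 fell in each line, where 26.6% to 36.5% of all genes rose and 27.1% to 35.9% fell. Ddr2, a receptor for fibrillar collagen, rose by 1.12 ± 0.02, 1.94 ± 0.02, 1.40 ± 0.02 and 1.35 ± 0.02, and the laminin receptor Dag1 and the syndecan Sdc1 fell, by 0.42 ± 0.03 to 1.13 ± 0.03 and by 0.51 ± 0.03 to 2.31 ± 0.04. Of the 14 tested proteases and inhibitors, 6, 6, 8 and 5 rose and 2, 3, 1 and 4 fell (26.6%, 32.8%, 35.8% and 36.5% of all genes rose, and 27.1%, 33.9%, 35.3% and 35.9% fell). Mmp19 rose by 0.53 ± 0.13, 1.05 ± 0.12, 1.44 ± 0.12 and 1.24 ± 0.12, and Mmp2 rose by 2.38 ± 0.17 in MYAZ16_1e, from 0.853 to 4.43 CPM. In LM1_LM Mmp2 fell by 0.33 ± 0.06, from 54.4 to 43.2 CPM, and it changed by -0.63 ± 0.28 in Myc310 and -0.14 ± 0.07 in LM1 (adjusted p = 0.054 and 0.06). Mmp3 fell by 0.73 ± 0.11 to 0.87 ± 0.12 in Myc310, LM1 and LM1_LM.

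Between subtypes in control medium, the same lists held far larger differences. Nid1 was 7.52 ± 0.15 higher in LM than in MYAZ on the log2 scale, Mmp2 5.38 ± 0.29 and Mmp3 6.85 ± 0.41, whereas Fbln2 was 8.79 ± 0.13 lower, falling from 131 to 142 CPM per MYAZ line to 0.201 to 0.367 CPM per LM line. Plod2, a lysyl hydroxylase, and Loxl3, a lysyl oxidase, were 1.39 ± 0.12 and 1.62 ± 0.14 higher in LM. Of the 31 tested processing genes, 9 were higher and 14 lower in LM (30.3% and 30.5% of all genes) and 10 and 15 in LM_LM (30.5% and 32.3%).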

How the data were processed

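Poly(A) RNA of the 45 libraries was sequenced by the authors as paired-end reads from a directional kit, and the deposited values are counts per gene that the authors made with STAR and RSEM on GRCm38 (per the submitters' processing notes, which also name R 4.2.2 and DESeq2 1.38.3). Whether counting used strand, and the annotation release, are not given in the sources used here. The counts are whole numbers and were used as deposited.

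Counts were tested with edgeR 4.0.16 in R 4.3.3, as the quasi-likelihood test with TMM scaling, filterByExpr and Benjamini-Hochberg adjustment over all genes tested, with a threshold of 0.05. Values after ± are standard errors for log2 differences. CPM values use TMM over all 45 libraries, and log2 fold changes are edgeR's, with its small default prior count. The log2 CPM behind the check of pairing used a prior count of 2. A fold against a group at 0 uses 3 counts per library. Deprivation and its differences between lines were fitted on 24 libraries, and subtypes on the control libraries. The fits were tested on simulated data. The simulated libraries were drawn independently, without a spread between lines. They therefore say nothing about how cultures of the same line affect the subtype calls. Positions and exon lengths are from GENCODE M21 (GRCm38), and promoter sequences from RefSeq (GRCm38.p6).

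Counts over the set include 1 gene that is not reported here by name. The genes and lists were chosen with earlier results of these data known. Values in every culture are given for genes called in a deprivation comparison with a 2-fold change and 5 CPM in at least 1 line, and values by subtype for the 3 genes highest and the 3 lowest with separated line means. Of the lists, up to 3 of the largest called changes in each direction are named. Alternatives were another scaling (RLE, upper quartile), no filter, DESeq2 1.42.0, a replicate block, fewer libraries, counts summed per line and limma 3.58.1 with the line as a random block.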

Additional observations from a re-analysis of the deposited data

Results flagged for a closer look

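For these genes the change under deprivation differed between MYAZ16_1e and another line by the test of the difference itself (edgeR interaction term, adjusted over all genes). All differences are log2, the line named minus MYAZ16_1e, and share the MYAZ16_1e libraries.

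Col7a1 differed by 1.28 in Myc310, 1.62 in LM1 and 1.57 in LM1_LM. Lamb1 differed by -0.23 in Myc310, -0.54 in LM1 and -0.61 in LM1_LM. Of the other laminins, Lama5 differed by 0.23 in LM1 and 0.27 in LM1_LM, Lamb2 by 0.28 in Myc310 and 0.17 in LM1, Lamc3 by 0.93 in LM1, Lama3 by -1.15 in Myc310 and Lamb3 by 1.76 in LM1_LM, where it has at most 2 counts in control medium.

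Of the fibrillar collagens, Col5a1 differed by 0.23 in LM1 and 0.21 in LM1_LM, Col5a3 by -0.45 in Myc310 and -0.18 in LM1, Col11a2 by -0.88 in Myc310 and -1.08 in LM1_LM, and Col27a1 by -1.85 in LM1_LM. Col16a1 differed by -0.17 in LM1 and -0.28 in LM1_LM, Col12a1 by -0.35 in LM1_LM and Col6a1 by -0.47 in LM1_LM.

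Of these differences, 8 lost their call under at least 1 alternative. That of Lamb2 in LM1 was lost under 12 (adjusted p up to 0.321): other scalings, DESeq2, and without control replicate 1, 2 or 3 or deprived replicate 2 or 3 of LM1, or control replicate 2 or 3 or deprived replicate 1 or 3 of MYAZ16_1e. Lama3 in Myc310 was lost without control replicate 1 or 2 or deprived replicate 1 or 3 of Myc310, or control or deprived replicate 1 or 2 of MYAZ16_1e (up to 0.0999). Lamc3 in LM1 was lost without control replicate 2 or deprived replicate 1 of LM1, or control or deprived replicate 1 of MYAZ16_1e (up to 0.134). Lamb3 in LM1_LM was lost with DESeq2 and without control replicate 1 or 2 or deprived replicate 3 of LM1_LM (up to 0.173), and Lama5 in LM1 with upper-quartile scaling, with DESeq2 and without control replicate 1 of LM1 (up to 0.105).

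Of the collagens, Col5a3 in LM1 was lost with no filter, with DESeq2 and without control replicate 1 or deprived replicate 1 or 2 of LM1, or control replicate 2 or deprived replicate 3 of MYAZ16_1e (adjusted p up to 0.21). Col11a2 in Myc310 was lost with no filter and without control replicate 3 or deprived replicate 1 or 2 of Myc310, or control replicate 3 or deprived replicate 1 or 2 of MYAZ16_1e (up to 0.111). Col12a1 in LM1_LM was lost without control or deprived replicate 3 of LM1_LM, or control replicate 3 or deprived replicate 1 or 2 of MYAZ16_1e (up to 0.101).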

How the results depend on the processing

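Of 171 calls for single genes, 103 kept their side of the threshold under every alternative run, 68 lost it under at least 1, and 0 changed direction. In the subtype comparisons the 3 cultures of a line are not independent, and the calls depended on how that was treated. With counts summed per line, Myc310 against MYAZ had 0 genes higher and 3 lower, LM against MYAZ 3 higher, LM_LM against MYAZ 3 higher and 7 lower, and LM against Myc310 and LM_LM against LM 0 higher. With the line as a random block, Myc310 against MYAZ had 2 higher and 4 lower, LM_LM against MYAZ 4 higher, and LM against Myc310 and LM_LM against LM 0 higher. Without line LM1, LM against Myc310 had 8 higher, and LM_LM against LM had 3 higher and 1 lower. LM_LM against LM had 0 higher without LM2, LM2_LM or LM3, and 4 higher and 8 lower without LM3_LM. LM against Myc310 had 1 gene lower without LM3 and 1 without the filter on low counts. DESeq2 gave 5 genes lower in MYAZ12_3i_NDI1.

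Leaving out 1 replicate gave 0 to 2 genes lower under deprivation in MYAZ16_1e, 2 to 4 genes with a more negative response in Myc310, 1 to 2 genes higher in LM against Myc310, 0 higher in LM_LM against LM, and 3 to 5 lower in MYAZ12_3i_NDI1. These fits also had fewer samples, and the cause of the shifts was not tested.

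Cultures with the same replicate number did not deviate together (12 pairs, correlations of -0.053 to 0.045), and with the replicate block Col4a3 alone lost its call, so that LM_LM against LM had 0 higher. Levels with RLE scaling were 0.987 to 1.01 times those with TMM. A minimum of 10 counts in 1 library kept 37 genes. Genes with few counts per library, such as Col1a1, Col1a2, Lama3 and Lamb3 in LM1_LM, are limited by depth.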
